A study of Mus musculus with 4 samples.

Results

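The 50 genes described here encode the kinases, kinetochore and spindle proteins, motors, cohesion and condensin subunits and cytokinesis factors that carry a cell through mitosis. They were taken as a list named by function (Mki67 to Foxm1, in 11 roles) from the 53845 rows of a count table of mouse intestinal crypts. The rule used no measured value, but earlier results of these data were known when the list was chosen. All 50 passed the filter on low counts that left 17504 genes for testing, with at least 99 counts for every gene in every library. In the comparison of crypts without CREPT against wild-type crypts, 0 of the 50 were called, against 1.64% of all genes tested.

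RNA-seq was made from small intestinal crypts of C57BL/6 mice, 2 libraries from wild-type mice (WT) and 2 from Vil-CREPTKO mice, to see which transcripts differ in uninjured crypts once the epithelium lacks CREPT. CREPT, the product of Rprd1b, binds RNA polymerase II. Vil-CREPTKO mice carry Cre recombinase under the villin promoter and homozygous floxed CREPT alleles, so that an exon is removed in epithelial cells of crypt and villus alike, while blood, immune and connective tissue cells keep the gene. The WT group is labelled only as wild type. The study describes a mating of Cre-carrying floxed with floxed mice, whose offspring without Cre keep floxed alleles, but it does not state the genotype behind each WT library. Mice over the whole work were of both sexes and aged 6 to 8 weeks. Crypts were freed with EDTA and passed through a strainer that holds back villi, with no sorting of cells. The crypt RNA-seq is described as made from 2 mice per genotype, so each library was taken as 1 mouse, although the labels name no animal.

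Total counts ran from 47241049 to 49369315 per library. Rprd1b was at 60.5 and 61.6 CPM (read counts scaled to a common library size, with TMM factors) in WT and at 26.3 and 29.0 CPM in Vil-CREPTKO, and it fell by 1.14 on the log2 scale (SE 0.12, adjusted p 0.0041 by edgeR's quasi-likelihood test). These counts cover the whole gene while the deletion removes an exon, so they do not measure how complete the deletion was. Vil-CREPTKO replicate 1 stood apart from the other 3 libraries. Mitochondrial genes took 10.2% of its counts against 6.75% to 7.62% elsewhere, and 8 villus enterocyte markers summed to 22971 CPM in it against 12522 to 16533 CPM elsewhere. Epithelial markers were high in all 4 libraries (7908 to 8844 CPM over 7 genes), and 12 immune markers summed to 443 to 691 CPM. Stromal markers (6 genes) summed to 28.9 CPM in Vil-CREPTKO replicate 1 against 11.3 to 17.1 CPM elsewhere. Blood markers (3 genes) summed to 59.8 CPM in that library against 11.1 to 25.6 CPM elsewhere. Xist was high in WT replicate 2 alone (863 CPM against 0.299 to 0.529 CPM), so that by this measure the WT group held libraries of both sexes and the Vil-CREPTKO group did not.

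Mitosis is driven by waves of kinase activity, in which Aurora and Polo-like kinases build the spindle and the kinetochores tie chromosomes to it. The spindle assembly checkpoint holds back the anaphase-promoting complex (APC/C) until all chromosomes are attached, after which securin is destroyed, sister chromatids part and the cell divides. In the intestine, these genes are active in the stem and transit-amplifying cells of the crypt and are silent in the differentiated cells of the villus. Their transcription peaks together late in the cell cycle through promoter elements that include the CHR (cell cycle genes homology region), which the MuvB complex reads, and the CCAAT box, which the factor NF-Y reads.

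These elements were also common in the promoters of the genes. Promoters reaching from 250 bases before to 50 bases after the start (RefSeq, GRCm38.p6) were matched for 43 of the 50 genes, with 48 promoters in all. No promoter was matched for Aurkb, Spc24, Incenp, Kif20a, Tpx2, Smc4 and Foxm1. The promoters of 4 genes are shown because the genes had the lowest levels in Vil-CREPTKO relative to WT (Cenpm and Ube2c) or stand at the centre of the APC/C and kinase results (Cdc20 and Plk1). They lie at chr2:164769679-164769978 on the plus strand (Ube2c), chr4:118437294-118437593 on the minus strand (Cdc20), chr7:122159185-122159484 on the plus strand (Plk1) and chr15:82244287-82244586 on the minus strand (Cenpm). Capitals mark matches, on either strand, to the CHR (TTTGAA or TTCGAA), to CCAAT and to an E2F-type motif (TTCCCGC or TTGGCGC).
Ube2c: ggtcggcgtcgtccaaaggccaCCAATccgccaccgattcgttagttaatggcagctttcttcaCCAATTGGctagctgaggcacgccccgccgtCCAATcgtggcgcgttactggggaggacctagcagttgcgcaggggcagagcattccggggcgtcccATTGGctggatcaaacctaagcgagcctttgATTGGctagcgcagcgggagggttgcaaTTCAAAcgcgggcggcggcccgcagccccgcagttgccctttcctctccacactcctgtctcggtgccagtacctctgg
Cdc20: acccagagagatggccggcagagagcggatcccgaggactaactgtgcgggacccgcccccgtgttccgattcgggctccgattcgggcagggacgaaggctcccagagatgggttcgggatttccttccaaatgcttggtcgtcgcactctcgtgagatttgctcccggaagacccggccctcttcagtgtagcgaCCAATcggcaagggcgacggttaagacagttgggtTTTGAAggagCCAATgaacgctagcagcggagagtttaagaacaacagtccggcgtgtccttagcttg
Plk1: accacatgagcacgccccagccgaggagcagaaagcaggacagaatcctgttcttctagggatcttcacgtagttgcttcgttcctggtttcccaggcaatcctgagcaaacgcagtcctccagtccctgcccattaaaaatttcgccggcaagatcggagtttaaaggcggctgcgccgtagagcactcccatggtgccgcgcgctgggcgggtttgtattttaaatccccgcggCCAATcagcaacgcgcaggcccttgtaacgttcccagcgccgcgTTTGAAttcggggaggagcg
Cenpm: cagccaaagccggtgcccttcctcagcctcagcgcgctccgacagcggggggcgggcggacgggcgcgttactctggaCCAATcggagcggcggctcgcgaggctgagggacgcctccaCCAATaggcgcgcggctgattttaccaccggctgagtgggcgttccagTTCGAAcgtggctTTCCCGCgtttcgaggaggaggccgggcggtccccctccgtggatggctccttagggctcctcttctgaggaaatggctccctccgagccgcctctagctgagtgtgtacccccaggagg

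In Ube2c the CHR match lay 29 bases before the start with 6 CCAAT matches upstream of it, of which a pair on opposite strands overlap. Cdc20 had the CHR 18 bases before the start between CCAAT matches, Plk1 had it 31 bases after the start, and Cenpm had it 83 bases before the start, followed by the only E2F-type match among these 4 promoters. A CHR match was found in 36 of the 48 promoters of these genes (75.0%) and in 19.2% of all 32851 promoters. CCAAT was found in 34 (70.8%) against 37.4% of all promoters, and an E2F-type match in 11 (22.9%) against 6.81%. CHR and CCAAT occurred together in 30 promoters (62.5%) against 7.52%, and 33 promoters (68.8%) held a CHR within 100 bases before or 50 bases after the start, against 8.59% of all. The median log2 fold change was -0.0072 in the 33 genes with a CHR match and 0.038 in the 10 matched genes without one. These matches are letters in a window and not evidence of binding.

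**Figure D1:**
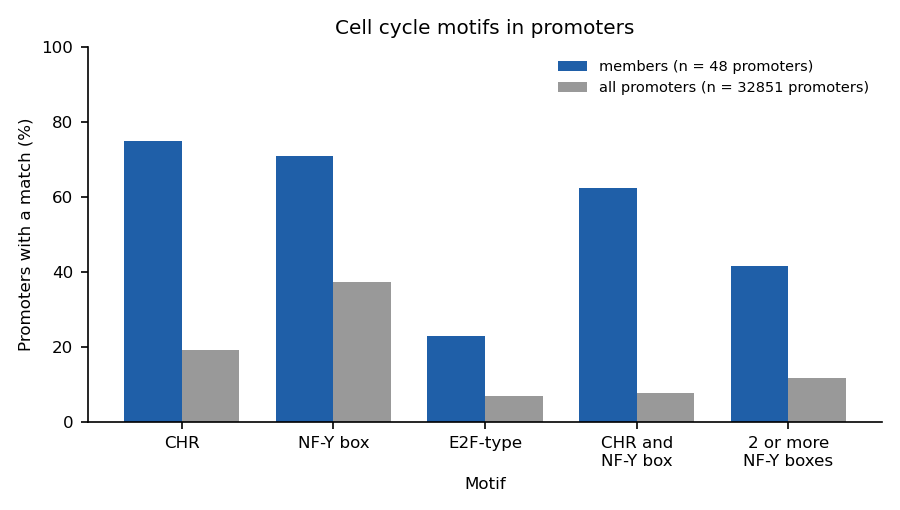
Share of promoters (percent) that hold each motif, for the 48 matched promoters of the 50 genes (blue) and all 32851 promoters (grey); the NF-Y box is the CCAAT motif. A CHR match is present in 75.0% of the genes' promoters and 19.2% of all, and both elements together in 62.5% and 7.52%.

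The genes were well detected in crypts, at levels on either side of the median of all genes tested (4.80 CPM per kb of transcript in WT). Per kilobase of transcript, the median level in WT was 10.9 CPM per kb, which 66.1% of all genes tested did not reach, and the levels ran from 1.28 CPM per kb in Kif11 to 99.3 CPM per kb in Ube2c. The 50 genes summed to 2488 and 2601 CPM in the WT libraries, and to 2138 and 2806 CPM in replicates 1 and 2 of Vil-CREPTKO. The Vil-CREPTKO libraries thus lay on either side of the WT libraries. In bulk crypts, fewer dividing cells and less RNA of these genes per dividing cell cannot be told apart.

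**Figure D2:**
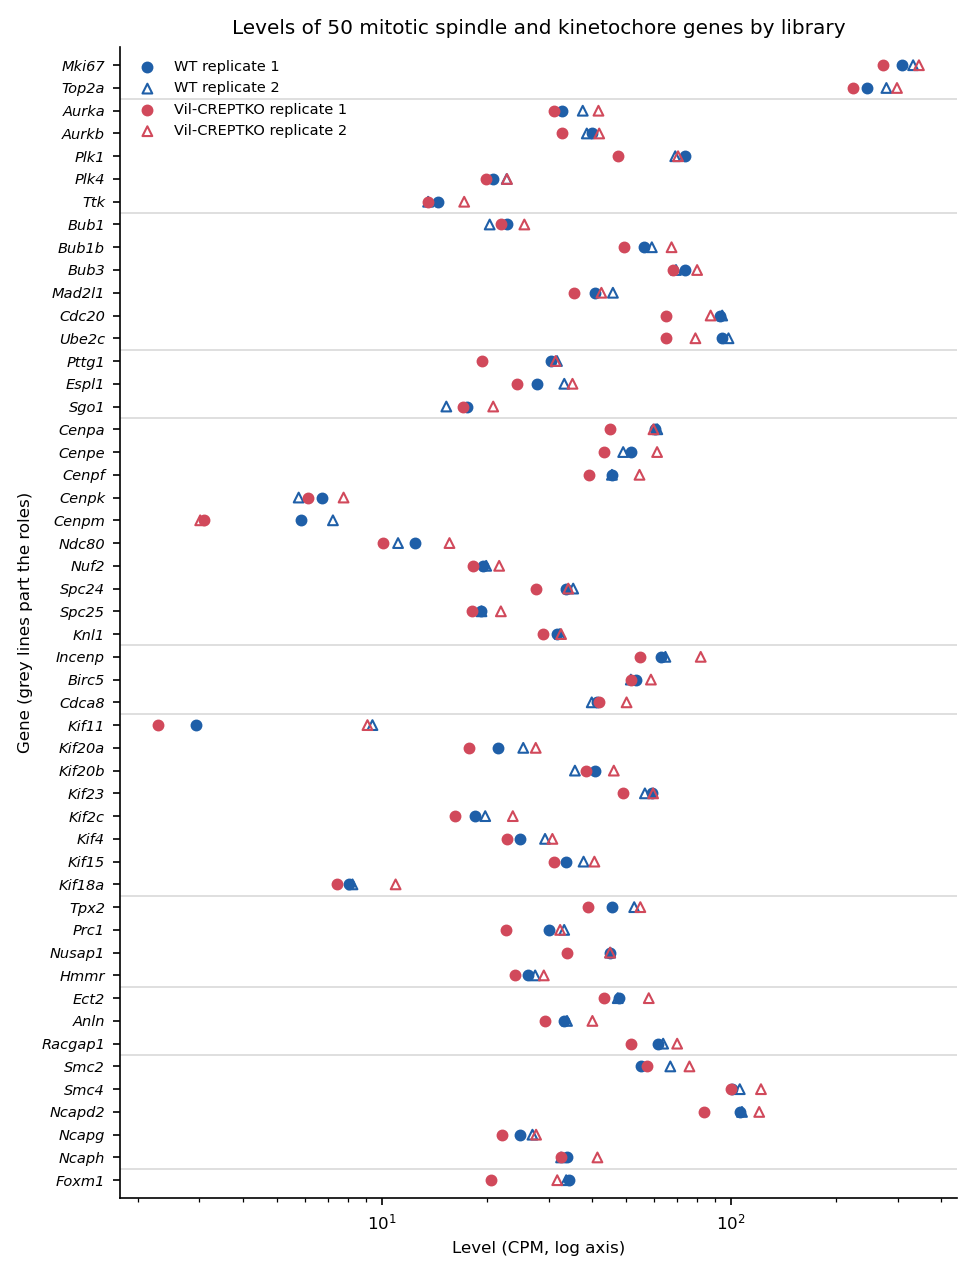
Level of each of the 50 genes (CPM, log axis) in the 4 libraries, WT in blue and Vil-CREPTKO in red, filled circles for replicate 1 and open triangles for replicate 2. Vil-CREPTKO replicate 1 is the lowest point in 41 genes and Vil-CREPTKO replicate 2 the highest in 38, while Cenpm is low in both Vil-CREPTKO libraries and Kif11 is low in replicate 1 of both groups.

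Between the groups, the median gene lay close to no change. The median log2 fold change, Vil-CREPTKO minus WT, was -0.010 against -0.0060 over all genes tested, with 26 genes lower and 24 higher, and 47 of the 50 lay within 0.3 of 0. By edgeR's quasi-likelihood test 0 genes had an adjusted p under 0.05 (2.71% of all genes did), and 2, Ube2c and Cenpm, had an unadjusted p under 0.05 (14.3% of all genes did). Both Vil-CREPTKO libraries lay below both WT libraries in 6 genes (Ube2c, Cdc20, Cenpa, Cenpm, Nusap1 and Foxm1) against 24.2% of all genes tested, and above them in 1 (Cdca8) against 21% of all genes. A p over the threshold does not show equal levels, and the 95% intervals give what remained possible. For 48 of the 50 genes the interval lay within a 2-fold change in either direction, as it did for 60.3% of all genes, which include weakly expressed ones. Outside Cenpm and Kif11 the intervals reached from -0.82 to 0.68. The difference between group means was smaller than the gap between the Vil-CREPTKO libraries in 48 genes.

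**Figure D3:**
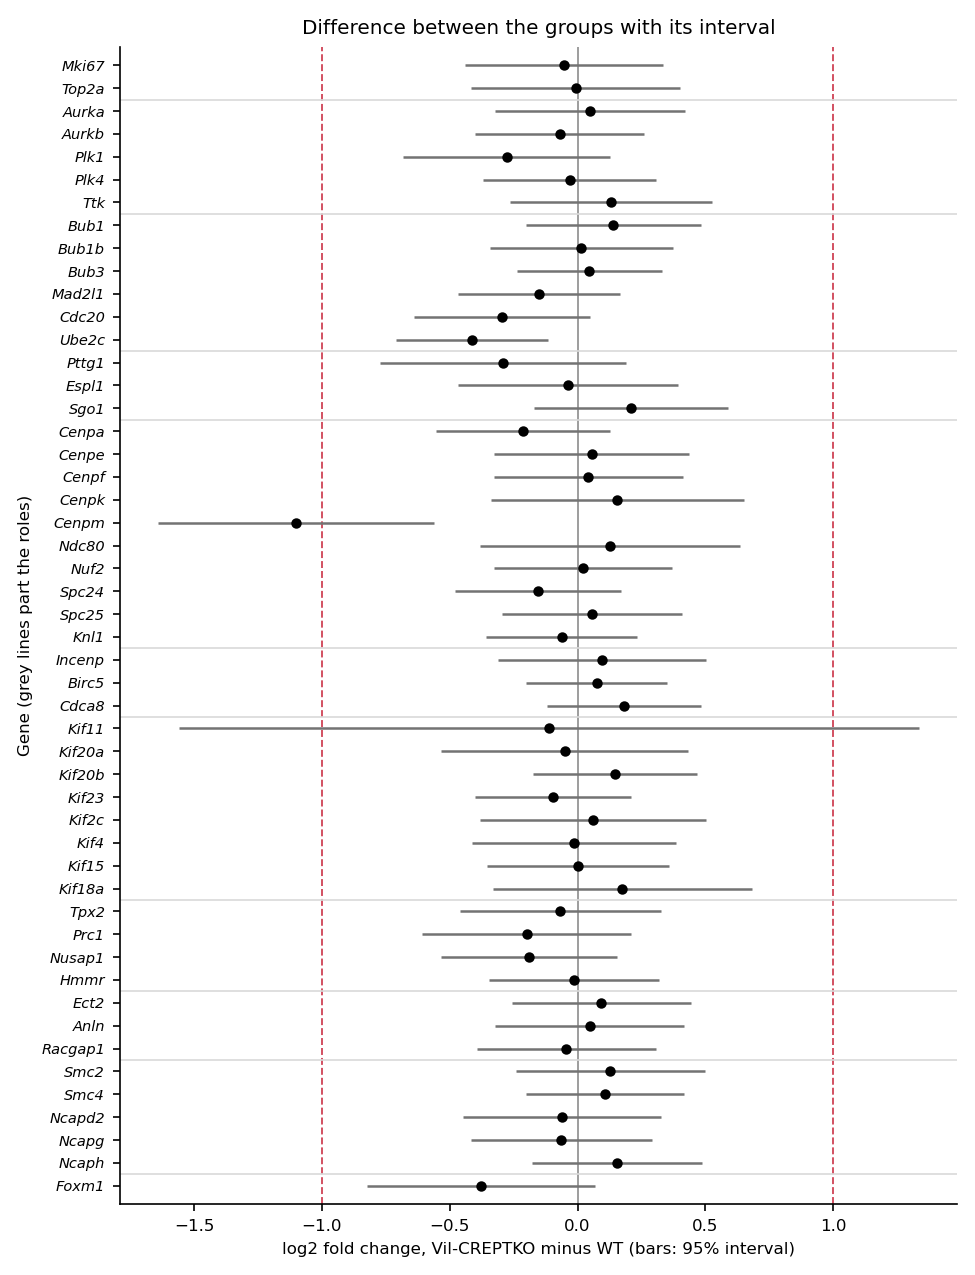
Log2 fold change of each gene, Vil-CREPTKO minus WT, with its 95% interval from edgeR's quasi-likelihood fit; dashed lines mark a 2-fold change. The intervals of 48 genes hold 0 and those of 48 stay between the dashed lines; Cenpm lies lowest and Kif11 has the widest interval.

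The classical marks of cycling cells did not differ beyond the spread between libraries. Mki67, whose product Ki-67 coats mitotic chromosomes, was at 308 and 332 CPM in WT and at 272 and 345 CPM in Vil-CREPTKO. Top2a, the topoisomerase that untangles sister DNA, was at 245 and 278 CPM in WT and at 223 and 298 CPM in Vil-CREPTKO. In each, the Vil-CREPTKO libraries enclosed the WT libraries. The interval of the log2 fold change was -0.44 to 0.34 for Mki67 (estimate -0.052) and -0.42 to 0.40 for Top2a (estimate -0.0072), so that a 2-fold fall of either lay outside it. The sign of so small an estimate turned under some settings, given in the closing section.

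Among the mitotic kinases, Plk1 had the lowest estimate. Plk1, the Polo-like kinase of mitotic entry and spindle assembly, was at 73.6 and 69.1 CPM in WT and at 47.3 and 70.4 CPM in Vil-CREPTKO (estimate -0.28 on the log2 scale, SE 0.18, edgeR adjusted p 0.556). Only Vil-CREPTKO replicate 1 was low, and without Vil-CREPTKO replicate 2 the change was -0.59 with an edgeR adjusted p of 0.0417, in a fit in which 3.65% of all genes passed. Aurka, the spindle pole kinase, was at 32.8 and 37.6 CPM in WT and at 31.1 and 41.7 CPM in Vil-CREPTKO. Aurkb, the kinase of the chromosomal passenger complex, was at 39.9 and 38.6 CPM against 32.9 and 41.9 CPM. Plk4, which starts centriole duplication, and Ttk, which starts checkpoint signalling, likewise overlapped between the groups, at 19.8 to 22.8 CPM and 13.5 to 17.2 CPM over the 4 libraries.

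In the checkpoint and APC/C group the genes of the ubiquitin step lay lowest. Ube2c, the ubiquitin-conjugating enzyme that works with the APC/C (ENSMUSG00000001403, chromosome 2, 164769898 to 164778822, plus strand, GRCm38), was at 93.8 and 98.2 CPM in WT and at 65.3 and 79.0 CPM in Vil-CREPTKO, and the groups did not overlap. Its log2 fold change was -0.41 (SE 0.13, interval -0.71 to -0.12), with an edgeR adjusted p of 0.172. Cdc20, the APC/C activator that the checkpoint restrains, was at 93.1 and 94.2 CPM against 65.1 and 87.3 CPM (log2 fold change -0.30, SE 0.15, edgeR adjusted p 0.429). Both are among the genes that overlap a neighbour on the opposite strand (Ube2c with Tnnc2 over 1662 bases, Cdc20 with Elovl1 over 53 bases). Bub3, described below, overlaps Fgfr2 on the opposite strand over its whole length (11674 bases). The strand setting of the counting was not stated. The checkpoint genes themselves had estimates on either side of 0. Bub1, the checkpoint kinase at kinetochores, was at 22.8 and 20.3 CPM in WT and at 22 and 25.6 CPM in Vil-CREPTKO (estimate 0.14 on the log2 scale, SE 0.15). Bub1b, Bub3 and Mad2l1, the subunits of the complex that inhibits Cdc20, were at 49.2 to 67.5, 68.1 to 79.9 and 35.4 to 45.8 CPM over the libraries, and their groups overlapped.

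Of the genes that hold and part sister chromatids, Pttg1 showed the widest gap between the Vil-CREPTKO libraries outside Kif11. Pttg1, which encodes securin, was at 30.4 and 31.7 CPM in WT but at 19.3 and 31.4 CPM in replicates 1 and 2 of Vil-CREPTKO, a gap of 0.70 on the log2 scale. Its log2 fold change was -0.29 (SE 0.21), and 0.014 without Vil-CREPTKO replicate 1. Sgo1, the shugoshin that protects centromeric cohesin, had the highest estimate of the 50 genes, 0.21 (SE 0.17, interval -0.17 to 0.59), with 17.5 and 15.3 CPM in WT and 17.0 and 20.8 CPM in Vil-CREPTKO. Espl1, the separase, was at 27.8 and 33.3 CPM against 24.3 and 35.1 CPM.

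The lowest estimate of the 50 genes was in the kinetochore group. Cenpm, a subunit of the constitutive centromere network (ENSMUSG00000068101, chromosome 15, 82233779 to 82244748, minus strand, GRCm38), drew 299 and 356 counts in WT against 134 and 148 in Vil-CREPTKO. These are 5.86 and 7.23 CPM against 3.08 and 3.01 CPM, or 6.54 ± 0.973 CPM against 3.05 ± 0.0489 CPM (SD, n = 2), and the groups did not overlap. The log2 fold change was -1.10 (SE 0.24, interval -1.64 to -0.56), and the edgeR adjusted p of 0.0509 lay just over the threshold, so that the gene was not called. It passed in 6 of the 14 alternative fits, among them DESeq2 (adjusted p 0.00819), which is the study's tool and by which 5.14% of all genes with an adjusted p passed. Over the alternatives its log2 fold change ran from -1.25 to -0.94 and its adjusted p from 0.00261 without a filter on low counts to 0.185 without WT replicate 2. Cenpm was also the only gene of the 50 that was not lower in Vil-CREPTKO replicate 1 than in replicate 2.

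Other kinetochore genes had estimates nearer to 0. Cenpk, another subunit of that network and expressed at a similar level, was at 6.72 and 5.77 CPM in WT and at 6.14 and 7.76 CPM in Vil-CREPTKO (estimate 0.16 on the log2 scale, SE 0.22). Cenpa, the histone H3 variant that marks centromeres, was at 60.4 and 61.4 CPM in WT and at 45.0 and 59.9 CPM in Vil-CREPTKO, without overlap but with Vil-CREPTKO replicate 2 close to WT (log2 fold change -0.21, SE 0.15, edgeR adjusted p 0.594). Whether Cenpm differed from these genes was not tested. The Ndc80 complex, which grips microtubules, overlapped between the groups. Ndc80 was at 12.4 and 11.1 CPM against 10.1 and 15.6 CPM (log2 fold change 0.13, SE 0.22). Nuf2, Spc24 and Spc25 were at 18.2 to 21.6, 27.7 to 35.3 and 18.1 to 21.9 CPM over the libraries. Cenpe, a kinetochore motor, was at 51.6 and 49 CPM in WT and at 43.1 and 61.3 CPM in Vil-CREPTKO. Cenpf (39.2 to 54.6 CPM) and the scaffold Knl1 (28.9 to 32.6 CPM) overlapped as well.

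The 3 further subunits of the chromosomal passenger complex, which corrects faulty attachments, all had estimates above 0. Without Vil-CREPTKO replicate 2, Incenp was at -0.22 and Birc5 at -0.017, and with library totals Birc5 was at -0.015. Cdca8, the borealin subunit, was at 41.3 and 39.9 CPM in WT and at 41.9 and 50.2 CPM in Vil-CREPTKO (estimate 0.18 on the log2 scale, SE 0.13, edgeR adjusted p 0.611), with the lower Vil-CREPTKO library just above WT. Birc5, or survivin, was at 53.5 and 51.6 CPM against 51.7 and 58.9 CPM. Incenp, the scaffold, was at 63.1 and 64.8 CPM against 54.7 and 81.8 CPM, the Vil-CREPTKO libraries on either side of WT.

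Among the 8 kinesin motors, Kif11 divided the libraries by replicate number and not by group. Kif11, the motor that pushes spindle poles apart (ENSMUSG00000012443, chromosome 19, 37376403 to 37421859, plus strand, GRCm38), drew 150 and 462 counts in WT against 99 and 446 in Vil-CREPTKO, or 2.94 and 9.39 CPM against 2.28 and 9.08 CPM. Replicate 2 was higher by 1.66 on the log2 scale in WT and by 1.98 in Vil-CREPTKO, whereas the largest gap between the WT libraries in any other of the 50 genes was 0.30. Its group difference was therefore the least certain of all (log2 fold change -0.11, SE 0.64, interval -1.56 to 1.34). Kif15, which can act beside Kif11 on the spindle, was at 33.7 and 37.8 CPM in WT and at 31.0 and 40.6 CPM in Vil-CREPTKO. The other 6 (Kif20a, Kif20b, Kif23, Kif2c, Kif4 and Kif18a) serve the central spindle, chromosome arms and microtubule ends. Their levels ran from 7.41 CPM to 59.8 CPM, and the groups overlapped in each.

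The 4 genes of spindle assembly and bundling all had estimates below 0, and those of cytokinesis and condensin lay on either side of it. The shared sign did not hold under every setting. Hmmr (-0.015, SE 0.15) was at 0.0011 with DESeq2, and Tpx2 (-0.068, SE 0.17) was at 0.041 without WT replicate 2. Prc1, which crosslinks the microtubules of the central spindle, was at 30.0 and 33.2 CPM in WT and at 22.7 and 32.4 CPM in Vil-CREPTKO (estimate -0.20 on the log2 scale, SE 0.18), and it lies within the span of Rccd1 on the opposite strand. Nusap1, a microtubule bundler, was at 45.1 and 45.0 CPM in WT and at 33.9 and 45.0 CPM in replicates 1 and 2 of Vil-CREPTKO (estimate -0.19 on the log2 scale, SE 0.15, edgeR adjusted p 0.65), so that Vil-CREPTKO replicate 2 lay just below WT. Tpx2 and Hmmr, which aid spindle assembly, overlapped at 39.0 to 54.9 and 24.0 to 29.1 CPM. Ect2, Anln and Racgap1, which build the contractile ring, were at 43.2 to 58.1, 29.3 to 40.0 and 51.7 to 70.0 CPM with both extremes in the Vil-CREPTKO libraries. Of the condensin subunits that compact chromosomes, Smc2 was at 55.2 and 66.9 CPM in WT and at 57.5 and 75.9 CPM in Vil-CREPTKO (estimate 0.13 on the log2 scale, SE 0.16), and Ncaph was at 33.9 and 32.6 CPM against 32.6 and 41.4 CPM (log2 fold change 0.15, SE 0.15). Smc4, Ncapd2 and Ncapg overlapped between the groups.

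Foxm1, the transcription factor that activates many of these genes in late cell cycle (ENSMUSG00000001517, chromosome 6, 128362967 to 128376146, plus strand, GRCm38), was at 34.2 and 33.7 CPM in WT and at 20.5 and 31.7 CPM in Vil-CREPTKO. The groups did not overlap, but Vil-CREPTKO replicate 2 was close to WT (log2 fold change -0.38, SE 0.20, interval -0.82 to 0.069, edgeR adjusted p 0.441). Without Vil-CREPTKO replicate 2 it was -0.72 with an edgeR adjusted p of 0.0369. Foxm1 shares part of its length with genes annotated on its own strand (Gm44596 and Tex52), so its count may hold reads of these.

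The larger pattern ran between the libraries of the Vil-CREPTKO group. Replicate 1 was below replicate 2 in 49 of the 50 genes (50.1% of all genes tested), by 0.17 to 1.98 on the log2 scale, and the median difference was -0.40 against -0.00095 over all genes. In WT, replicate 1 was below replicate 2 in 32 genes (49.7% of all genes), with a median difference of -0.034. In the 50 genes the WT libraries lay closer together than over all genes, with a median absolute gap of 0.075 against 0.21. The Vil-CREPTKO libraries lay farther apart, at 0.40 against 0.23. All genes include weakly expressed ones, whose gaps hold more counting noise, and genes of like level were not compared. Against the mean of WT, the median gene was at -0.23 in Vil-CREPTKO replicate 1, with 46 genes lower, and at 0.19 in Vil-CREPTKO replicate 2, with 41 genes higher. Vil-CREPTKO replicate 1 was the lowest of the 4 libraries in 41 genes (28.7% of all genes) and Vil-CREPTKO replicate 2 the highest in 38 (23.6% of all genes).

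**Figure D4:**
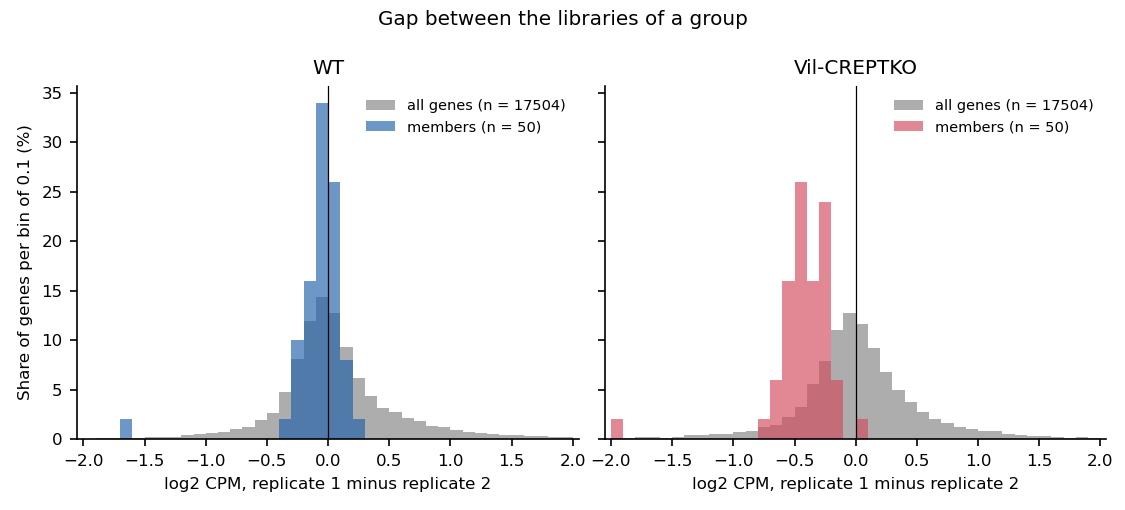
Difference in log2 CPM, replicate 1 minus replicate 2, within WT (left) and within Vil-CREPTKO (right), as the percent of genes per bin of 0.1, for the 50 genes (coloured) and all 17504 genes tested (grey). In WT the 50 genes centre near 0, and in Vil-CREPTKO 49 of them lie below 0 with a median of -0.40; Kif11 is the isolated bar at the left of each panel.

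The direction of the group comparison followed which Vil-CREPTKO library was used. Without Vil-CREPTKO replicate 1, 9 of the 50 genes were lower and the median log2 fold change was 0.18. Without Vil-CREPTKO replicate 2, 46 were lower, the median was -0.22, and 2 genes, Plk1 and Foxm1, had an adjusted p under 0.05, against 3.65% of all genes in that fit. Leaving out a WT library moved the median to -0.055 (without WT replicate 1) or 0.045 (without WT replicate 2).

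Other gene lists also differed between the Vil-CREPTKO libraries. Of 117 other mitosis genes, 97 were lower in Vil-CREPTKO replicate 1 than in replicate 2, as were 17 of 18 S phase genes. So were 15 of 21 regulators of cell cycle transcription, 4 of 4 crypt base markers and 4 of 4 Paneth cell markers. Villus enterocyte markers ran the other way, with 0 of 8 lower, as did stromal markers (0 of 6) and blood markers (0 of 3). Some markers differed between the WT libraries too. The median of replicate 1 minus replicate 2 was -0.66 in WT and -0.43 in Vil-CREPTKO for Paneth cell markers. It was -0.36 and 0.73 for villus enterocyte markers, 0.25 and -0.47 for crypt base markers, and 1.12 and 1.91 for blood markers. Fabp1, the fatty acid binding protein of enterocytes, was at 1745 and 2215 CPM in WT and at 4196 and 2380 CPM in replicates 1 and 2 of Vil-CREPTKO. The 8 villus enterocyte markers together summed to 13695 CPM in Vil-CREPTKO replicate 2, between the WT libraries (12522 and 16533 CPM). Of the 8, 2 had log2 fold changes below 0. Crypt base markers summed to 1205 CPM in Vil-CREPTKO replicate 1 against 1443 to 1842 CPM in the other libraries. The part of these markers, and of the mitochondrial share, in the level of the 50 genes was not tested.

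**Figure D5:**
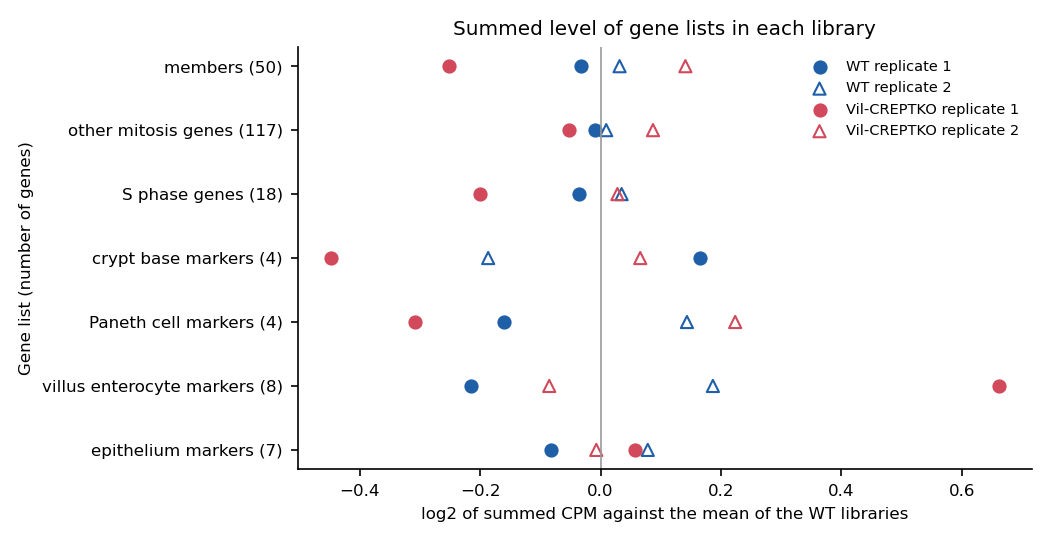
Log2 of the summed CPM of each gene list against the mean of the WT libraries, 1 point per library (WT blue, Vil-CREPTKO red, filled circles replicate 1, open triangles replicate 2). Vil-CREPTKO replicate 1 is the lowest library for the 50 genes (-0.25), S phase genes (-0.20) and crypt base markers (-0.45), and the highest for villus enterocyte markers (0.66).

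Beyond the 50 genes, 1 of the 117 other mitosis genes was called, against 1.64% of all genes tested. Knstrn, which encodes the kinetochore and spindle adaptor kinastrin (ENSMUSG00000027331, chromosome 2, 118814003 to 118853957, plus strand, GRCm38), was at 40.9 and 42.4 CPM in WT and at 14.6 and 20.1 CPM in Vil-CREPTKO, and it fell by 1.27 on the log2 scale (SE 0.17, edgeR adjusted p 0.00786). Both Vil-CREPTKO libraries were low, and the fall passed the threshold with any of the 4 libraries left out, from -1.06 to -1.51. Over the 117 genes, 58 estimates were below 0 and the median was 0.00099. Of 18 S phase genes, Tyms, the thymidylate synthase, passed without reaching a 2-fold change, where 2.71% of all genes tested passed. Tyms was at 41.1 and 38.5 CPM in WT and at 22 and 24.4 CPM in Vil-CREPTKO (estimate -0.78 on the log2 scale, SE 0.13, edgeR adjusted p 0.0202). Of the 21 regulators of cell cycle transcription, 0 passed by edgeR's quasi-likelihood test. In that list 1 gene, E2f1, had an unadjusted p under 0.05, against 14.3% of all genes. Mybl2, the late cell cycle partner of MuvB, was at 18.3 and 20.6 CPM in WT and at 18.0 and 23.1 CPM in Vil-CREPTKO.

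The log2 fold changes of the 50 genes ran with the GC content of their transcripts (Spearman's rho -0.42 across the 50 genes, -0.13 across all genes with a transcript), a description over genes that share the same 4 libraries. The 17 genes of at least 50% GC had a median of -0.045 with 10 lower, and the 33 genes under 50% GC a median of 0.0025 with 16 lower. The 17 held Plk1, Cdc20, Ube2c, Cenpm and Foxm1 among the lower ones. Incenp, Cdca8, Birc5, Aurka, Bub1b, Bub3 and Kif2c were the higher ones. With each library corrected for GC content and length, the adjusted p was over 0.05 for each of the 50, as it was without the correction. Their median moved from -0.010 to -0.027. Plk1 was then at -0.20, Cdc20 at -0.22, Foxm1 at -0.30, Ube2c at -0.42 and Cenpm at -1.03.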

How the data were processed

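Libraries were grouped by the titles in the public record. The authors deposited whole-number read counts per gene, 1 column per library, not normalised or pooled. The study's methods describe mapping to transcripts of GRCm38.p6 with Bowtie2 and estimation with RSEM, and the submitters' processing notes also list CASAVA 1.8. Versions of Bowtie2 and RSEM, the annotation and the strand setting are not given in the sources used here, so reads of the 12 of the 50 genes that overlap another gene may be shared with it. The instrument is BGISEQ in the methods and Illumina in the record. Symbols, positions, lengths and GC contents came from GENCODE M21, which matched 99.1% of 53845 rows; 380 unnamed rows were kept. Promoters came from RefSeq (GRCm38.p6).

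Counts were fitted in R 4.3.3 with edgeR 4.0.16 (filterByExpr, TMM, glmQLFit and glmQLFTest, two-sided, group as the only term) and adjusted by Benjamini-Hochberg over 17504 genes. A gene was called at an adjusted p under 0.05 and an absolute log2 fold change over 1, the study's thresholds. SE is the size of the log2 fold change over the square root of F, and 95% intervals use the t quantile at the fit's degrees of freedom. The steps were tested on simulated counts. The common dispersion gave a biological coefficient of variation of 0.188 between libraries. A count of 0 would allow up to 3 counts, or 0.0588 to 0.069 CPM, for counting error only. Counts of the libraries of a group differed beyond sampling noise (chi-square per gene 49.8 and 70.1), so neither pair was treated as 1 library deposited again.

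All 50 genes were to be accounted for by name or count, with Rprd1b and every gene of the other lists with an adjusted p under 0.05. Fold changes are printed for genes chosen after their values were seen, and E2f1, Mybl2 and Fabp1 were also named after that. The 50 genes and the lists were chosen with earlier results of these data known. Alternatives were DESeq2 1.42.0, other scalings and filters, a replicate block, a GC and length correction (loess, span 0.5), no mitochondrial genes, and each library left out.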

Additional observations from a re-analysis of the deposited data

How the results depend on the processing

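Of the 50 genes, 1, Cenpm, was called and had an adjusted p under 0.05 with library totals (log2 fold change -1.19, adjusted p 0.0265), DESeq2 (-1.09, 0.00819), no filter on low counts (-1.10, 0.00261) and without mitochondrial genes (-1.10, 0.0493). Over all genes, 2.55%, 2.51%, 2.16% and 1.65% were called in these fits. It was not called with RLE or upper-quartile scaling, at least 10 counts in every library, or the GC and length correction, where the count was 0. With a library left out, 0 to 1 genes were called (Cenpm without WT replicate 1, at -1.25 with an adjusted p of 0.0318, where 2.33% of all genes were called) and 0 to 2 had an adjusted p under 0.05 (Plk1 at -0.59 and Foxm1 at -0.72 without Vil-CREPTKO replicate 2), all by edgeR's quasi-likelihood test except where DESeq2 is named. Leaving out 1 library at a time, 9 to 46 of the 50 were lower, their median ran from -0.22 to 0.18, and Rprd1b ran from -1.21 to -1.08. Knstrn then ran from -1.51 to -1.06 and Tyms from -0.85 to -0.71. Without Vil-CREPTKO replicate 2, Tacc3, of the other mitosis genes, was at -0.69 and Tk1, of the S phase genes, at -0.76. Without a filter on low counts 3 other mitosis genes passed (Knstrn, Tacc3 and Haus1), against 4.35% of all genes. Tk1 made the S phase count 2 with library totals, DESeq2, no filter and at least 10 counts in every library. Over all genes, 3.97%, 5.14%, 4.35% and 3.28% passed in these fits. The cause of these changes was not tested.

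The sign of small estimates turned. Top2a was at 0.0097 with RLE scaling, 0.026 with upper-quartile scaling, 0.0081 with DESeq2 and 0.088 without WT replicate 2. With a library left out, Mki67 ran from -0.23 to 0.11 (0.0050 lacking WT replicate 2), Top2a from -0.23 to 0.19, Pttg1 from -0.68 to 0.014, Prc1 from -0.47 to 0.031 and Kif11 from -1.43 to 0.96 (0.56 lacking Vil-CREPTKO replicate 1). The lower ends were those lacking Vil-CREPTKO replicate 2. Cenpk ran from -0.019 to 0.31, Ndc80 from -0.22 to 0.40, Smc2 from -0.082 to 0.31 (-0.0063 lacking WT replicate 1) and Ncaph from -0.024 to 0.31. Over all 50 genes, 0 to 11 signs turned with all 4 libraries, most with library totals, which moved the median of all genes to -0.098 and that of the 50 to -0.089, and 4 to 20 with a library left out.

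The replicate numbers were shared by the groups, but with a pair of them and no animal or batch behind a number in the labels they were not taken to pair the libraries (correlation across genes of the gaps within each group 0.028). With the replicate block, 1 of the 50 genes, Cenpm, was called (-1.09, adjusted p 0.0439 by edgeR) and 336 genes were called over all (1.92%), against 287. With the block and the GC and length correction together, 0 of the 50 were called and Cenpm was at -1.02 (edgeR adjusted p 0.0679). With 2 libraries per group, differences within the gap between the Vil-CREPTKO libraries were not detectable, and a library left out leaves an arm of 1 that is assumed to vary like the other.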

Other observations

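Kif11 was set beside other genes that followed replicate number, after its values were seen. Of the 17504 genes tested, 36 (0.206%) were higher by at least 1.2 on the log2 scale in replicate 2 of both groups, and Kif11 had the most counts of them over the 4 libraries together. The 36 included the B cell genes Cd79a, Ms4a1 and Pax5. Cd79a, a subunit of the B cell receptor, was at 0.392 and 1.63 CPM in WT and at 0.483 and 1.89 CPM in Vil-CREPTKO. Ms4a1, which encodes CD20, was at 0.353 and 1.10 CPM in WT and at 0.207 and 1.08 CPM in Vil-CREPTKO. The 12 immune markers, which hold Cd79a and Ms4a1, ran the other way as a sum. They summed to 691 and 527 CPM in WT and to 513 and 443 CPM in replicates 1 and 2 of Vil-CREPTKO. Kif11 was the only one of the 50 mitosis genes among the 36.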
